A study of Rattus norvegicus with 40 samples.

Results

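Kidney T cells of SS/MCW rats on high-salt chow (HS) were set against kidney T cells of SS/MCW rats on low-salt chow (LS), a comparison of 8 of the 40 libraries sequenced. The libraries were chosen by their labels, 4 from rats on HS and 4 from rats on LS, all sampled at 10 weeks of age. The SS strain is a rat model of salt-dependent hypertension, and HS lasted 3 weeks. Each library was a pool of T cells from 3 rats, so a library averages over animals and hides the spread between them. The other groups used below are SS/MCW rats on LS at 7 weeks, the second rat type of the study, SS/CRL, on HS and on LS at 10 weeks, and T cells circulating in the SS/MCW rats on HS and on LS at 10 weeks. The labels give no transgene, allele or drug for any group. Expression is the authors' FPKM (fragments per kilobase of transcript, scaled to library size), used here as 1 value for each group, with none for each library.

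T cells recognize antigen through a receptor made of antigen-binding chains and the CD3 chains, which pass the signal to kinases and adaptor proteins inside the cell. They enter tissues by means of chemokine receptors, integrins and the actin machinery that moves the cell. In salt-fed Dahl rats, T cells gather in the kidney around vessels and tubules, and they are known for adding to the rise in blood pressure and to kidney injury.

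T cell markers were present in both groups but did not dominate the RNA. None of the 12 T cell markers was at 0, and their summed level was 977 FPKM on HS and 593 FPKM on LS, a ratio of 1.65. The median marker stood at 15.4% of its level in circulating cells on HS and at 9.21% on LS. Other cell types were represented, in part more strongly. Distal nephron markers summed to 6929 FPKM on HS and 4698 FPKM on LS, and Umod, which encodes the uromodulin of the thick ascending limb, alone gave 6148 FPKM on HS and 4057 FPKM on LS. Proximal tubule markers summed to 1309 FPKM on HS and 2203 FPKM on LS. Macrophage markers summed to 868 FPKM on HS and 397 FPKM on LS, and natural killer cell markers summed to 288 FPKM on HS and 213 FPKM on LS. Most of the latter sum was Tyrobp, with 205 FPKM on HS and 162 FPKM on LS. Tyrobp stood at 1226% of its circulating level on HS and 1056% on LS, against 92.6% and 79.0% for the median natural killer cell marker. Ncr1, of the same markers, had 0.789 FPKM on HS and 0.106 FPKM on LS. Erythroid markers summed to 450.3 FPKM on HS and 4608 FPKM on LS. Endothelial markers summed to 23.95 FPKM on HS and 47.3 FPKM on LS, and fibroblast and mural markers to 3.94 FPKM on HS and 24.9 FPKM on LS. Platelet, neutrophil, B cell and podocyte markers summed to 19.5, 12.2, 6.94 and 0.120 FPKM on HS, against 46.6, 9.06, 2.62 and 2.61 FPKM on LS. The platelet marker Ppbp was at 0 in both groups. Because the libraries are bulk RNA of mixed cells, fewer cells of a type and less RNA per cell cannot be told apart, and the part of these shifts in the differences below was not tested.

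High salt was associated with a small set of calls. Those higher on HS included many leukocyte genes, and those lower on HS included 2 hemoglobin genes, 1 proximal tubule gene and 1 matrix gene of the lists used. A gene model was called where the q-value of Cuffdiff, the program the authors used for testing, was under 0.05. Of 19385 gene models tested, 84 were called (0.433%), 50 higher on HS (0.258%) and 34 lower on HS (0.175%). Of these, 45 had a value above 0 in both groups, and 35 of the 45 carry a gene symbol. The 26 that rose did so by 2.56-fold to 6.58-fold, with log2 differences between 1.36 and 2.72. The 9 that fell did so by 3.06-fold to 13.6-fold, with log2 differences between -3.77 and -1.61. The standard error implied by each difference and its test statistic reached 1.79 log2 units among the rises and lay between 0.85 and 1.57 among the falls. Across all models with 1 FPKM or more in either group the median log2 difference was -0.06 (n = 20739), and 45.1% of these had a higher value on HS. An unadjusted p under 0.05 stood on 828 of the 19385 tested models (4.27%), 448 of them higher and 380 lower on HS. The counts given below for gene lists are to be read against these shares.

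**Figure D1:**
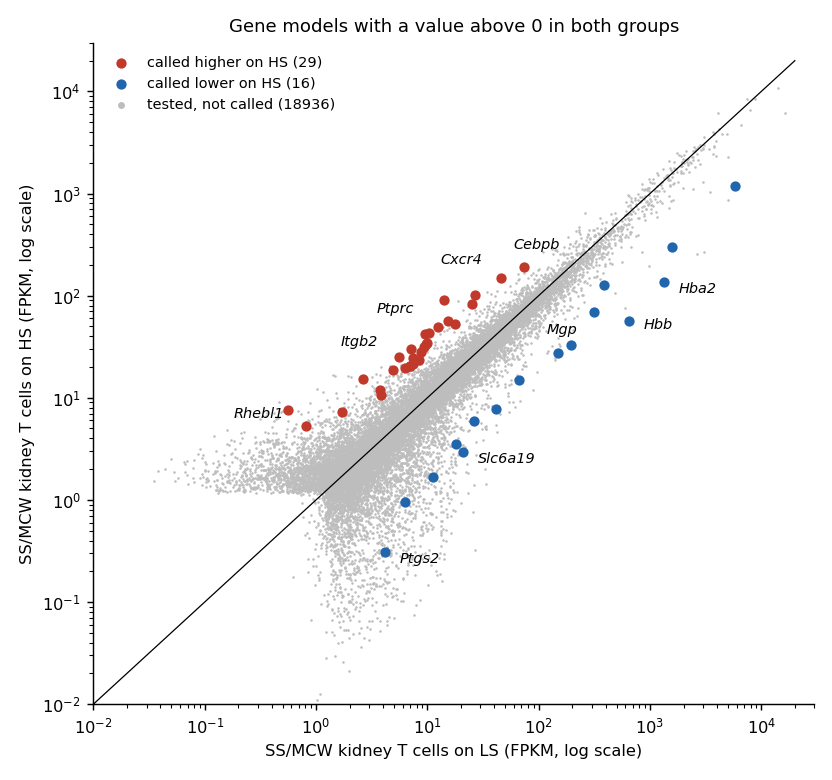
Level of each tested gene model in kidney T cells of SS/MCW rats on HS (vertical axis, FPKM, log scale) against LS (horizontal axis, FPKM, log scale), 1 authors' value per group; the line marks equal levels. Red points are the 29 models called higher on HS and blue points the 16 called lower, among models with a value above 0 in both groups, and the called models lie at the edges of the cloud at each level.

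The calls rest on few steps of p and on how models listed at 0 enter the adjustment. In the authors' deposited table the smallest p was 5e-05 and was shared by 54 calls, and calls reached up to p = 0.0002 (q = 0.0462). When models with a group at 0 were left out and the deposited p adjusted again, 24 of the 84 calls stayed, among them 12 of the 26 rises with a symbol and 5 of the 9 named falls. Those rises include Klrb1c, Itgb2, GIMAP5, Cd27, Ptprc, Rgs1, Gpnmb, Tnfaip3, Il2rg, Lcp2 and Dock2, and the falls are Hba2, Slc6a19, Piwil1, Lrtm2 and Mgp. With a normal p of the deposited statistic in place of the deposited p, 1 of the 84 stayed.

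**Figure D2:**
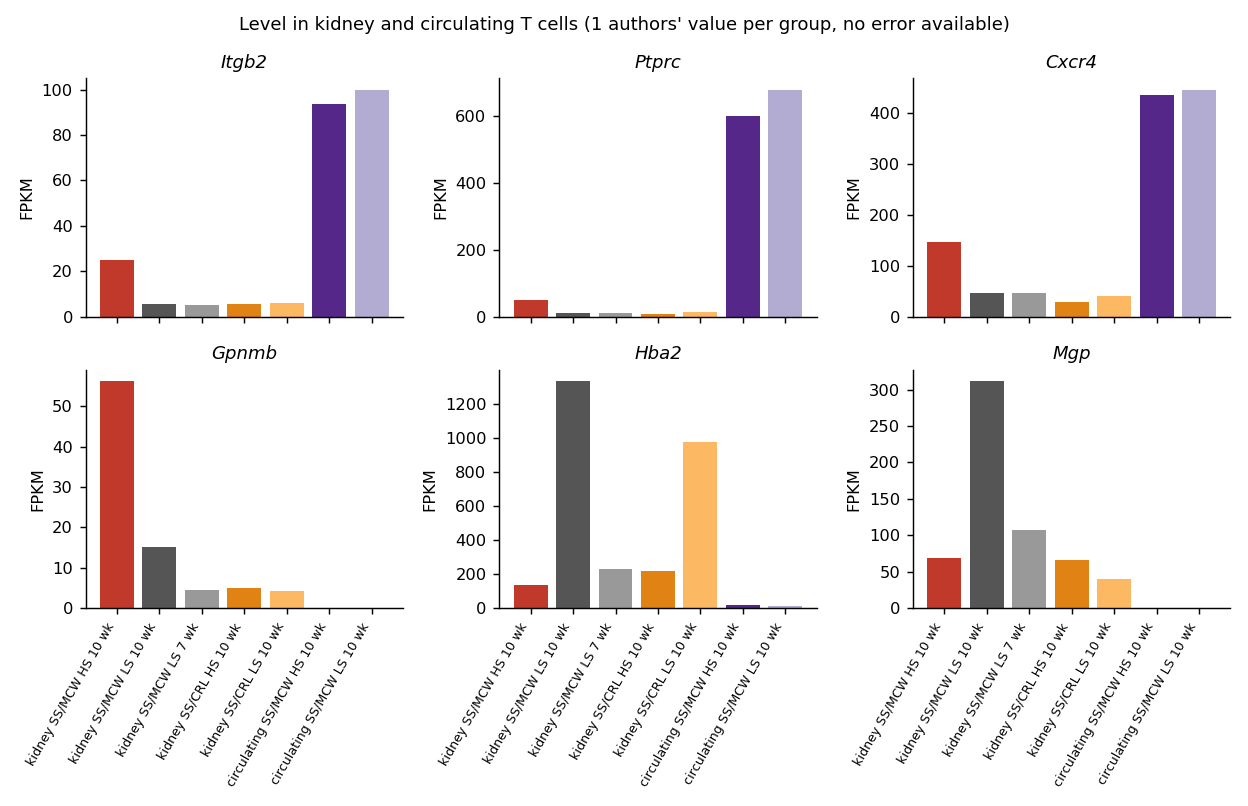
Level of 6 called genes (vertical axes, FPKM from 0) in kidney and circulating T cells of the groups named under the bars; each bar is 1 authors' value, with no error available, and tables were normalized separately. Itgb2, Ptprc, Cxcr4 and Gpnmb were highest in SS/MCW kidney cells on HS among the kidney groups, Hba2 and Mgp were highest in SS/MCW kidney cells on LS, and Itgb2, Ptprc and Cxcr4 were higher still in circulating cells.

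The CD3 chains were uneven. Cd3e, a signaling chain of the receptor (chromosome 8 from 47915615 to 47926788), had 110.3 FPKM on HS and 42.1 FPKM on LS and just missed the threshold (p = 0.00025, q = 0.0527 in the authors' deposited table). Cd247, the zeta chain, had 27.6 FPKM on HS and 9.19 FPKM on LS. Cd3g had 183 FPKM on HS and 100.2 FPKM on LS (p = 0.0443 in the authors' deposited table), and Cd3d had 136 FPKM on HS and 114 FPKM on LS (p = 0.543 in the authors' deposited table). Of 5 receptor complex genes none was called by Cuffdiff and 4 had an unadjusted p under 0.05, with a median log2 difference of 1.39. The log2 difference thus ran from 0.26 for Cd3d to 1.58 for Cd247 within the same complex.

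Among the genes that relay the receptor signal, 3 of 25 tested rose and 14 had an unadjusted p under 0.05 in that direction, with a median log2 difference of 1.09 over 26 members. Ptprc, which encodes the leukocyte phosphatase CD45 that primes the receptor's kinases, had 48.8 FPKM on HS and 12.4 FPKM on LS, a log2 difference of 1.97 with an implied SE of 0.84. Lcp2 encodes the adaptor SLP-76 and had 24.3 FPKM on HS and 7.50 FPKM on LS. Fyb encodes an adaptor that links the receptor to integrins and had 10.6 FPKM on HS and 3.83 FPKM on LS. The kinase genes Fyn and Lck did not pass, with 21.5 and 78.8 FPKM on HS, against 8.80 and 35.99 FPKM on LS. Rasal3, which encodes a Ras inhibitor of lymphocytes, rose to 20.4 FPKM on HS, against 7.04 FPKM on LS. Sash3, an adaptor gene of lymphocytes, rose to 28.05 FPKM on HS, against 8.75 FPKM on LS.

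Of the coreceptors 1 was called. Cd4, the coreceptor of helper T cells, rose to 21.2 FPKM on HS, against 7.44 FPKM on LS, a log2 difference of 1.51 with an implied SE of 0.80. Cd8a, a coreceptor chain of cytotoxic T cells, had 138 FPKM on HS and 98.2 FPKM on LS (p = 0.296 in the authors' deposited table). Cd8b, the other CD8 chain, differed more, with 16.1 FPKM on HS and 5.45 FPKM on LS, and was not called (p = 0.0054 in the authors' deposited table). The transcription factor genes Runx3, Bcl11b and Tbx21 had 17.5, 4.24 and 19.8 FPKM on HS, against 5.83, 1.42 and 6.96 FPKM on LS, and none was called. Of 16 genes of the CD4 and CD8 lineages 1 rose, and the median log2 difference was 1.02. Satb1, a chromatin organizer of thymocytes and naive T cells, rose to 20.7 FPKM on HS, against 6.98 FPKM on LS. It was the 1 call among 11 tested genes of naive and recirculating T cells, whose median was 1.17.

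Of 16 tested costimulatory and inhibitory receptor genes 3 rose, and the median log2 difference was 1.46. It was 1.20 over members that reached 5 FPKM and 0.98 with 1 FPKM added to each level. Of the 16 members that reached 1 FPKM in either group 15 had a higher value on HS. Cd27, a costimulatory receptor of the TNF receptor family, had 42.8 FPKM on HS and 10.3 FPKM on LS, a log2 difference of 2.05 with an implied SE of 0.83. Ctla4, an inhibitory receptor of activated and regulatory T cells, had 18.8 FPKM on HS and 4.95 FPKM on LS. Cd53, a tetraspanin gene of leukocytes and the third call of the list, had 53.2 FPKM on HS and 17.5 FPKM on LS. The costimulatory receptor gene Icos had 9.86 FPKM on HS and 3.76 FPKM on LS and did not pass (p = 0.00235 in the authors' deposited table). Within the regulatory T cell list Ctla4 was the 1 call of 13 tested. Of its 14 members that reached 1 FPKM in either group, 10 had higher and 4 lower values on HS, with a median of 0.76. Foxp3, a transcription factor gene of regulatory T cells, had 8.34 FPKM on HS and 8.68 FPKM on LS (p = 0.935 in the authors' deposited table). Tnfrsf1b, the second TNF receptor, rose outside these lists to 11.9 FPKM on HS, against 3.72 FPKM on LS. Il2rg, the common cytokine receptor chain, rose to 83.2 FPKM on HS, against 25.3 FPKM on LS.

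Genes of migration and residence were among the rises. Cxcr4, the receptor of the chemokine Cxcl12, rose to 147 FPKM on HS, against 46.3 FPKM on LS, and Rgs1, which dampens chemokine receptor signals, rose to 101.4 FPKM on HS, against 27.0 FPKM on LS. They were the 2 calls among 15 tested genes of tissue-resident and effector memory cells, of which 9 had an unadjusted p under 0.05 in that direction and whose median log2 difference was 1.31. Cd69, which holds T cells in tissue, had 45.7 FPKM on HS and 14.9 FPKM on LS (p = 0.00075 in the authors' deposited table). Of 23 genes of leukocyte integrins and actin motility 2 rose, with a median of 1.04. Itgb2, which encodes CD18, the beta chain common to several integrins of white cells, had 25.0 FPKM on HS and 5.53 FPKM on LS, a log2 difference of 2.17 with an implied SE of 0.82, and Dock2, a Rac activator needed for lymphocyte migration, had 19.8 FPKM on HS and 6.26 FPKM on LS. Rcsd1, whose product binds the actin capping protein, rose to 23.3 FPKM on HS, against 8.38 FPKM on LS.

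Promoters of the rises are shown because these genes were called in the same direction. Whether they share regulation was not tested. RefSeq windows of 250 bases upstream of the annotated start (build GRCr8) matched 20 of the 26 rises and 8 of the 9 falls. The core AGGAAG, which ETS family factors bind, stood on either strand in 12 of the 20 windows (60%), against 29.5% of 33469 windows of the same length over all genes. The median GC content was 50.2% in the 20 windows and 51.2% over all windows. Windows of 3 rises with a match follow, with AGGAAG or its reverse complement in capitals.
Ptprc, GRCr8 chr13:52259747-52259996, strand -: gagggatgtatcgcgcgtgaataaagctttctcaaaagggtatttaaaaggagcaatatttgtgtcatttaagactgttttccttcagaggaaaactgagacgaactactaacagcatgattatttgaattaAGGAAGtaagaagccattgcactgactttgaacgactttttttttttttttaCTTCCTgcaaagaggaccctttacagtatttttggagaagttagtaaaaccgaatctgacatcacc
Dock2, GRCr8 chr10:19748970-19749219, strand -: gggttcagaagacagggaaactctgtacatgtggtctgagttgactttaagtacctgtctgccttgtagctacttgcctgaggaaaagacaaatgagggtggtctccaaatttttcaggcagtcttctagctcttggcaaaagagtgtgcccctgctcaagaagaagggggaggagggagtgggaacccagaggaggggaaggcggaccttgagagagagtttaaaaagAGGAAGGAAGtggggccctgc
Cd53, GRCr8 chr2:197087897-197088146, strand -: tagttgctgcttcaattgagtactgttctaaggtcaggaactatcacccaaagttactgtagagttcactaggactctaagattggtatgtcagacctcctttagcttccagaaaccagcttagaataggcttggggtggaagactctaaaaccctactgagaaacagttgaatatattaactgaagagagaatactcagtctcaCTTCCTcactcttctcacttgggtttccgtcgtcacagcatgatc
The first base of a match lay 118 and 66 bases before the start in Ptprc, 21 and 17 bases before it in Dock2, where the matches overlap, and 45 bases before it in Cd53. A match is a run of letters in these windows and no measure of binding. Of the other motifs searched on both strands, TGTGGT (RUNX) stood in 3 of 20 windows of rises and 14.5% of all windows, CCACCC in 9 of 20 and 26.1%, and TGANTCA (AP-1) in 3 of 20 and 6.34%.

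Natural killer receptors are shared by natural killer cells and some T cells. Klrb1c, an NKR-P1 receptor gene, had 15.4 FPKM on HS and 2.63 FPKM on LS, a log2 difference of 2.55 with an implied SE of 1.16, and Klrk1, which encodes NKG2D, had 31.1 FPKM on HS and 9.29 FPKM on LS. They were the 2 calls among 11 tested receptors and adaptors, whose median was 1.25 over 12 members and 0.74 over those that reached 5 FPKM. Both belong to multigene families, so the counting may have divided reads among close relatives. Ncr1, a defining natural killer gene, had 0.789 FPKM on HS and 0.106 FPKM on LS and was not tested. None of 13 cytotoxic granule genes was called, 4 had an unadjusted p under 0.05, and the median was 0.93. Perforin, Prf1, had 5.36 FPKM on HS and 1.19 FPKM on LS (p = 0.00195 in the authors' deposited table).

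Among feedback regulators and immediate early genes there was 1 call. Tnfaip3, which encodes A20, a brake on NF-kB signaling, rose to 34.7 FPKM on HS, against 10.00 FPKM on LS. It was the 1 call among 25 feedback inhibitors of NF-kB and MAP kinases, of which 9 had an unadjusted p under 0.05 and 24 had a higher value on HS. The phosphatase gene Dusp5 had 23.4 FPKM on HS and 8.53 FPKM on LS (p = 0.00025, q = 0.0527 in the authors' deposited table). Of 20 immediate early genes 17 reached 1 FPKM in either group, and all of these 17 had higher values on HS, with a median log2 difference of 0.68, but none was called. Fosb had 108 FPKM on HS and 50.1 FPKM on LS (p = 0.00375 in the authors' deposited table), Junb had 274 FPKM on HS and 146 FPKM on LS, and Fos had 402 FPKM on HS and 277 FPKM on LS.

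Genes of myeloid cells were among the rises. Gpnmb, a glycoprotein gene of macrophages, rose to 56.3 FPKM on HS, against 15.2 FPKM on LS, and circulating T cells had 0.101 FPKM on HS and 0.105 FPKM on LS in their own table. It was the 1 call among 15 tested macrophage genes, whose median was 0.71. Csf1r, the macrophage growth factor receptor, had 72.4 FPKM on HS and 21.0 FPKM on LS (p = 0.00085 in the authors' deposited table), and the lysozyme gene Lyz2 had 641 FPKM on HS and 259.9 FPKM on LS (p = 0.01 in the authors' deposited table). Of the 15 macrophage genes that reached 1 FPKM in either group 14 had a higher value on HS. The complement genes C1qa and C1qc had 37.4 and 46.3 FPKM on HS, against 25.4 and 30.9 FPKM on LS, and C1qb, the exception, had 31.9 FPKM on HS and 43.4 FPKM on LS. Cebpb, a transcription factor of myeloid cells and inflammation, rose to 189.6 FPKM on HS, against 74.1 FPKM on LS, and had 7.64 FPKM on HS and 7.33 FPKM on LS in circulating cells. MHC class II genes were uncalled, 8 of 8 with a higher value on HS and a median of 1.06, and so were B cell genes, with a median of 1.27 over 8 members. None of 24 tested cytokine and chemokine genes was called, and 5 had an unadjusted p under 0.05. Among them Ccl7, a monocyte chemokine, had 7.55 FPKM on HS and 1.11 FPKM on LS, and Ccl3 had 269 FPKM on HS and 109.8 FPKM on LS. Of the 25 members of that list that reached 1 FPKM in either group 5 had lower values on HS. Ccl9, a chemokine gene outside that list, was called lower on HS and is given below.

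Other rises were GIMAP5, a GTPase gene of lymphocyte survival, with 30.3 FPKM on HS and 7.16 FPKM on LS, and Rgcc, a cell cycle regulator gene, with 42.2 FPKM on HS and 9.58 FPKM on LS. Rhebl1, which encodes a small GTPase related to Rheb, had 5.33 FPKM on HS and 0.811 FPKM on LS, and its implied SE of 1.79 was the largest among the rises with a symbol. SS/MCW kidney cells at 7 weeks had 3.94 FPKM of Rhebl1. Its model lies on chromosome X, where RefSeq does not place the gene, so which copy was counted is uncertain.

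**Figure D3:**
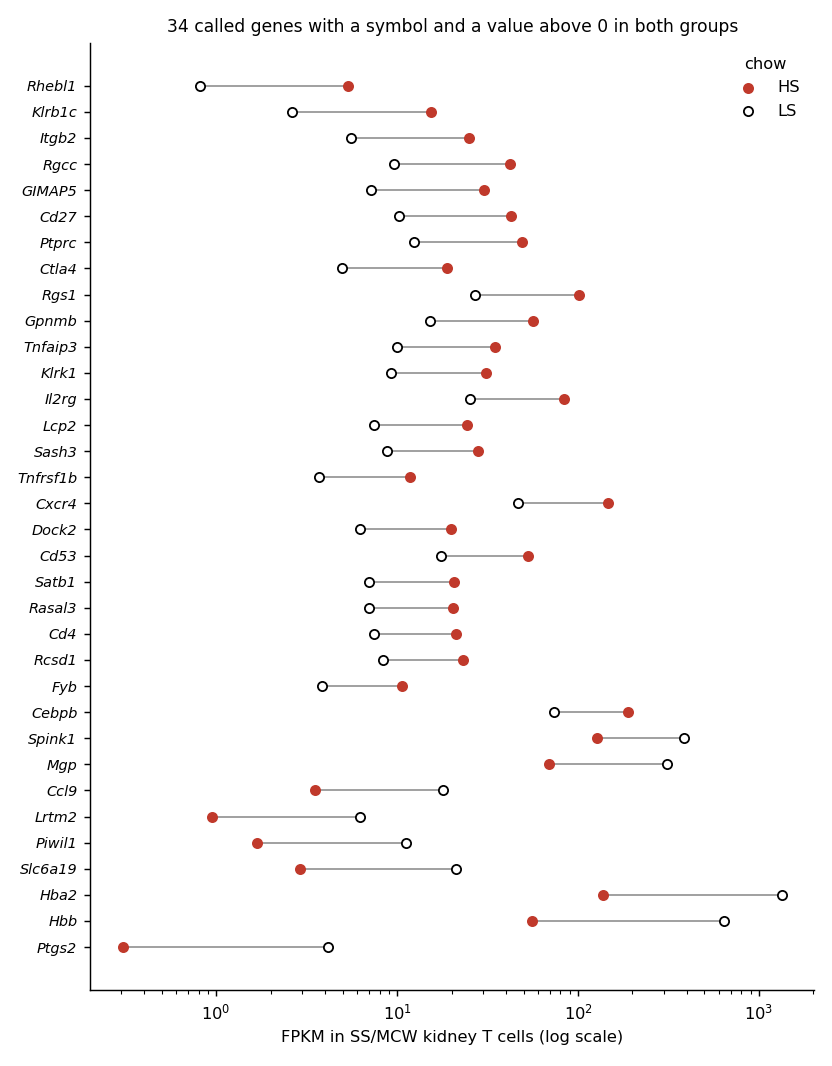
FPKM of 34 called genes with a symbol and a value above 0 in both groups (log scale) in SS/MCW kidney T cells on HS (red) and LS (open circles), joined by a line and ordered by log2 difference from Rhebl1 to Ptgs2. The rises ran from 5.33 to 189.6 FPKM on HS and from 0.811 to 74.1 FPKM on LS.

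Of the hemoglobin genes 2 fell. Hba2, an alpha globin gene, had 137 FPKM on HS and 1333 FPKM on LS, a log2 difference of -3.28 with an implied SE of 1.13. Hbb, a beta globin model that also carries the symbol Hbb-b1, had 56.0 FPKM on HS and 645 FPKM on LS, a log2 difference of -3.53 with an implied SE of 1.25. Hba1 had 257 FPKM on HS and 2623 FPKM on LS and just missed the threshold (q = 0.0527 in the authors' deposited table). Globin copies are nearly identical, so their separate values are uncertain. Alas2, the heme synthesis enzyme of red cell precursors, had 0.745 FPKM on HS and 7.22 FPKM on LS (p = 0.256 in the authors' deposited table). The list's median log2 difference was -0.50 over 9 members, with 2 called lower, and it was -1.89 over members that reached 5 FPKM and -1.53 as a mean. At 7 weeks on LS the levels were 229 FPKM for Hba2 and 75.0 FPKM for Hbb, so that the 10-week LS group was the high one of the 3 SS/MCW kidney groups.

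Of the tubule genes 1 fell, in the proximal segment. Slc6a19, the neutral amino acid transporter of the proximal tubule, fell to 2.92 FPKM on HS, against 21.1 FPKM on LS, a log2 difference of -2.85 with an implied SE of 1.04. It was the 1 call among 34 proximal tubule genes, of which 31 had lower values on HS and whose median was -0.61. Miox, an inositol-degrading enzyme, had 723 FPKM on HS and 1476 FPKM on LS (p = 0.051 in the authors' deposited table), and the transcription factor gene Hnf4a had 118 FPKM on HS and 241 FPKM on LS (p = 0.0284 in the authors' deposited table). The phosphate transporter gene Slc34a1 had 448 FPKM on HS and 559.7 FPKM on LS (p = 0.71 in the authors' deposited table). In the distal nephron and collecting duct none of 26 tested genes was called and the median was -0.09. Fxyd4, a pump regulator of the collecting duct, had 20.7 FPKM on HS and 76.7 FPKM on LS (p = 0.00225 in the authors' deposited table).

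Of the matrix and vessel genes measured in both groups 1 fell. Mgp, the matrix Gla protein that inhibits calcification, fell to 68.7 FPKM on HS, against 312 FPKM on LS, a log2 difference of -2.18 with an implied SE of 0.95. It was the 1 call among 22 fibroblast, mural and matrix genes with a median of -0.43, which was -0.13 over members that reached 5 FPKM and -0.93 as a mean. Col3a1, a fibrillar collagen gene, had 0.476 FPKM on HS and 9.15 FPKM on LS (q = 0.0527 in the authors' deposited table), and Dcn, a collagen-binding proteoglycan gene, had 2.36 FPKM on HS and 12.3 FPKM on LS. None of 24 endothelial genes was called, but 8 had an unadjusted p under 0.05 in the lower direction and 23 had lower values on HS, with a median of -0.88. Emcn, an endothelial sialomucin gene, had 16.7 FPKM on HS and 43.6 FPKM on LS (p = 0.00175 in the authors' deposited table). Mfap4, a microfibril gene, was listed at 0 on HS and had 1.63 FPKM on LS, and it was called.

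Promoter windows of 2 of the falls are given, those of a globin and a tubule gene, each with a single motif marked. TATAAA in Hba2 and the reverse complement of GTTAAT, a core of HNF1 sites, in Slc6a19 are in capitals.
Hba2, GRCr8 chr10:15829139-15829388, strand -: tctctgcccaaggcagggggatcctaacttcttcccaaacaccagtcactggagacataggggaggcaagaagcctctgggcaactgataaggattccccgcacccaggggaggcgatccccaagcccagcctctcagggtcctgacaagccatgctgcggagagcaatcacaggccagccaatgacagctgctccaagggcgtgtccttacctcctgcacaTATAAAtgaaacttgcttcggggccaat
Slc6a19, GRCr8 chr1:31414494-31414743, strand +: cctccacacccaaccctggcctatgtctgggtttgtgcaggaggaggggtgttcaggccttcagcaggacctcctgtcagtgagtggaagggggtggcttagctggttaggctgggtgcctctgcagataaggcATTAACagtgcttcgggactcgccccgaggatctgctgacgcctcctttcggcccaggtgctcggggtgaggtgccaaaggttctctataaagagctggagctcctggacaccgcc
The match began 28 bases before the start in Hba2 and 116 bases before it in Slc6a19. TATAAA stood in 3 of 8 windows of falls, 4 of 20 windows of rises and 12.9% of all windows, and GTTAAT in 1 of 8, 2 of 20 and 6.45%. AGGAAG stood in 3 of the 8 windows of falls (37.5%), and AGATAA, a core of sites for factors of red cells, in 2 of 8, 3 of 20 and 10.3% of all windows. The 2 falls with AGATAA were Slc6a19 and Spink1, and the windows of Hba2 and Hbb held no such match.

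The other falls belong to no common list. Ptgs2, which encodes the prostaglandin synthase COX-2, had 0.306 FPKM on HS and 4.16 FPKM on LS, the largest named fall at a log2 difference of -3.77 with an implied SE of 1.57. It had 17.9 FPKM at 7 weeks on LS. Ccl9, a chemokine gene, had 3.50 FPKM on HS and 18.0 FPKM on LS, and Spink1, a trypsin inhibitor gene whose model also carries Spink3, had 127 FPKM on HS and 387 FPKM on LS. Piwil1, which encodes a binder of small RNAs in the germ line, had 1.68 FPKM on HS and 11.2 FPKM on LS. Lrtm2, a leucine-rich repeat membrane protein gene, had 0.944 FPKM on HS and 6.25 FPKM on LS.

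Lists of general cell functions held no call. The median log2 difference was 0.05 over 73 cytosolic ribosomal protein genes, -0.20 over 34 oxidative phosphorylation genes, 0.03 over 19 glycolysis genes and 0.36 over 26 cell cycle genes. Antioxidant enzyme genes had lower values on HS for 17 of 18 members, with a median of -0.39. Sod1 had 858 FPKM on HS and 1601 FPKM on LS (p = 0.0583 in the authors' deposited table), and Hmox1, the exception, had 23.4 FPKM on HS and 12.5 FPKM on LS. Of the phagocyte oxidase genes Cybb had 19.3 FPKM on HS and 8.30 FPKM on LS (p = 0.00285 in the authors' deposited table), and none of 8 tested was called. Interferon-stimulated genes held no call among 25, with a median of 0.54.

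**Figure D4:**
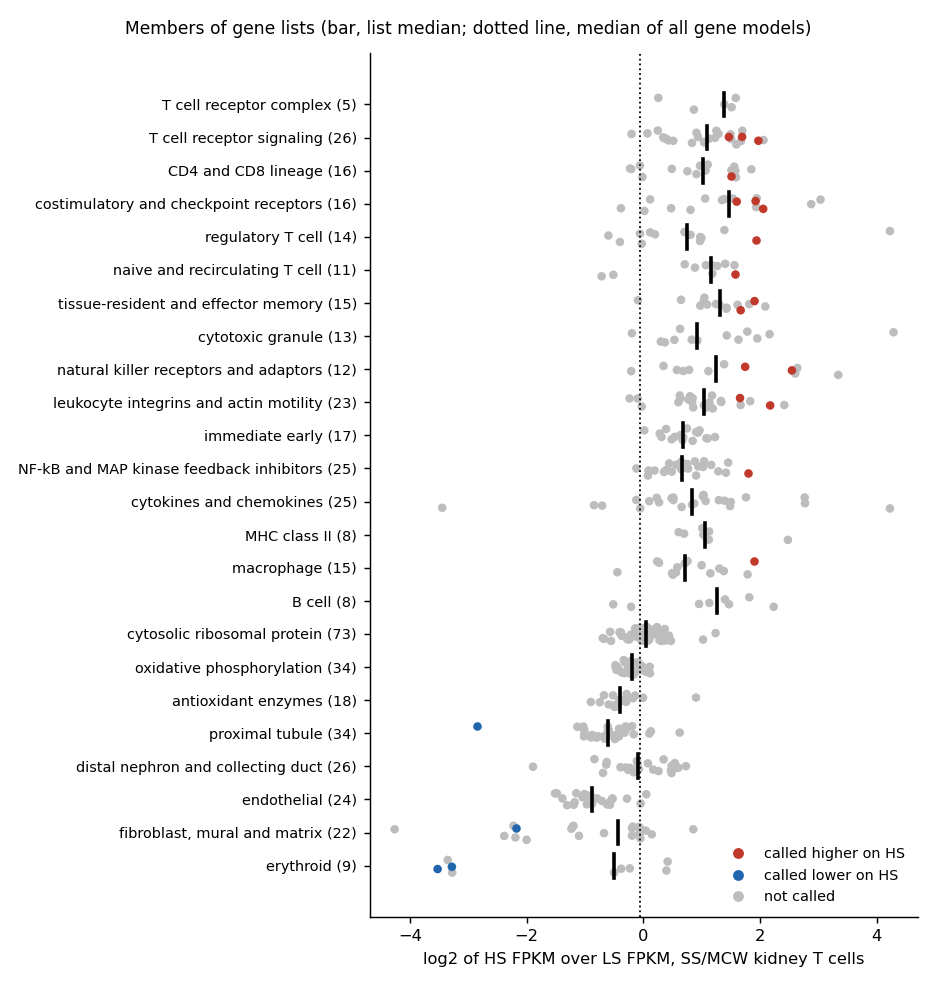
Log2 of the HS FPKM over the LS FPKM for members of 24 gene lists that reached 1 FPKM in either group (number in brackets); red and blue points were called higher or lower on HS, grey points were not called. Medians of leukocyte lists lie to the right of the dotted median of all gene models (-0.06), at up to 1.46, and those of endothelial, proximal tubule, erythroid and fibroblast lists lie to the left, down to -0.88.

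The salt difference of these genes was then set beside that in kidney T cells of SS/CRL rats and in circulating T cells of SS/MCW rats, which share no library with it. Kidney and circulating pools of SS/MCW rats may hold the same rats, and the test between them below leaves this out. The authors normalized each of their tables separately, which touches levels set across tables. Kidney cells of SS/MCW rats on HS had the highest level of the 5 kidney groups for 26 of the 26 rises with a symbol, a count that their selection for a high value in this group largely fixes. In SS/CRL kidney cells 21 of the 26 had lower and 5 higher values on HS, with a median log2 difference of -0.45, where 47.1% of all models tested were lower and 52.9% higher. None of the 26 was called, against 5.51% of 20501 models tested there in either direction. In circulating cells 15 had lower and 11 higher values on HS, with a median of -0.04, and none was called, against 0.107% of 16885 models. Ptprc had 8.61 FPKM on HS and 13.1 FPKM on LS in SS/CRL kidney cells, and Klrb1c had 0.982 FPKM on HS and 2.17 FPKM on LS. The level in SS/MCW kidney cells stayed below that of circulating cells for 22 of the 26 on HS and for 24 on LS, with a median of 21.4% of the circulating level on HS and 6.14% on LS. The exceptions on HS included Gpnmb, Cebpb and Rgs1, and the last was at 91.0 FPKM in kidney and 75.7 FPKM in circulating cells.

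Of the 9 named falls, 4 were also called lower on HS in SS/CRL kidney cells, where 3.07% of models were called in that direction. Hba2 had 217 FPKM on HS and 977 FPKM on LS there, Hbb had 107 FPKM on HS and 403 FPKM on LS, Slc6a19 had 12.8 FPKM on HS and 42.3 FPKM on LS, and Spink1 had 472 FPKM on HS and 860.1 FPKM on LS. Mgp had 66.2 FPKM on HS and 39.5 FPKM on LS in SS/CRL kidney cells and was not called. In the 7-week SS/MCW group 8 of the 9 had a lower value than in the 10-week LS group, and the 10-week LS group was the highest of the 5 kidney groups for 5. The falls were selected for a high value in the 10-week LS group, which partly fixes these counts.

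The difference between the salt effects was tested itself, as a z of the difference of log2 values over its standard error. Against SS/CRL kidney cells 0 of 16429 models passed at an adjusted p under 0.05 (0%), and 109 had an unadjusted p under 0.05. Among these were 16 of the 26 rises with a symbol, which had been selected for a large value in SS/MCW, so that this count is a description. Where no effect differs, a well calibrated test gives a share near its threshold of 0.05, and 109 of 16429 is far below that. The test was thus conservative, and for Ptprc the kidney statistic was 2.34 at a deposited p of 5e-05. That 0 models passed therefore does not show the salt effects to be alike. The difference was 2.58 for Ptprc with an SE of 1.00 (z = 2.58, an adjusted p of 1.000) and 2.27 for Itgb2 with an SE of 1.03. Mgp differed the other way, by -2.93 with an SE of 1.12. These were not the largest differences. Among models with a symbol and 5 FPKM or more in the higher group of each table, differences ran from -7.26 to 5.02. When each standard error came from the deposited p, 60 models passed, 47 of them with the higher log2 of HS over LS in SS/MCW. The 60 included 14 of the 26 rises and 3 of the 8 falls tested. Rises and falls were selected on the SS/MCW values and p that enter this test, so these counts too are a description.

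Against circulating SS/MCW cells 1 of 12479 models passed (0.00801%), a model without a symbol, and 30 had an unadjusted p under 0.05. These 30 of 12479 were again far below a share of 0.05, so this test was conservative too. In the higher direction the difference was 2.59 for Klrb1c with an SE of 1.23 and 2.27 for Itgb2 with an SE of 0.88, both at an adjusted p of 1.000. The largest differences in the lower direction were ranked among models with a symbol and 5 FPKM or more in the higher group of each table. They were those of Hbb, at -3.84 with an SE of 1.34, and Hba1, at -3.64 with an SE of 1.46, both at an adjusted p of 1.000.

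**Figure D5:**
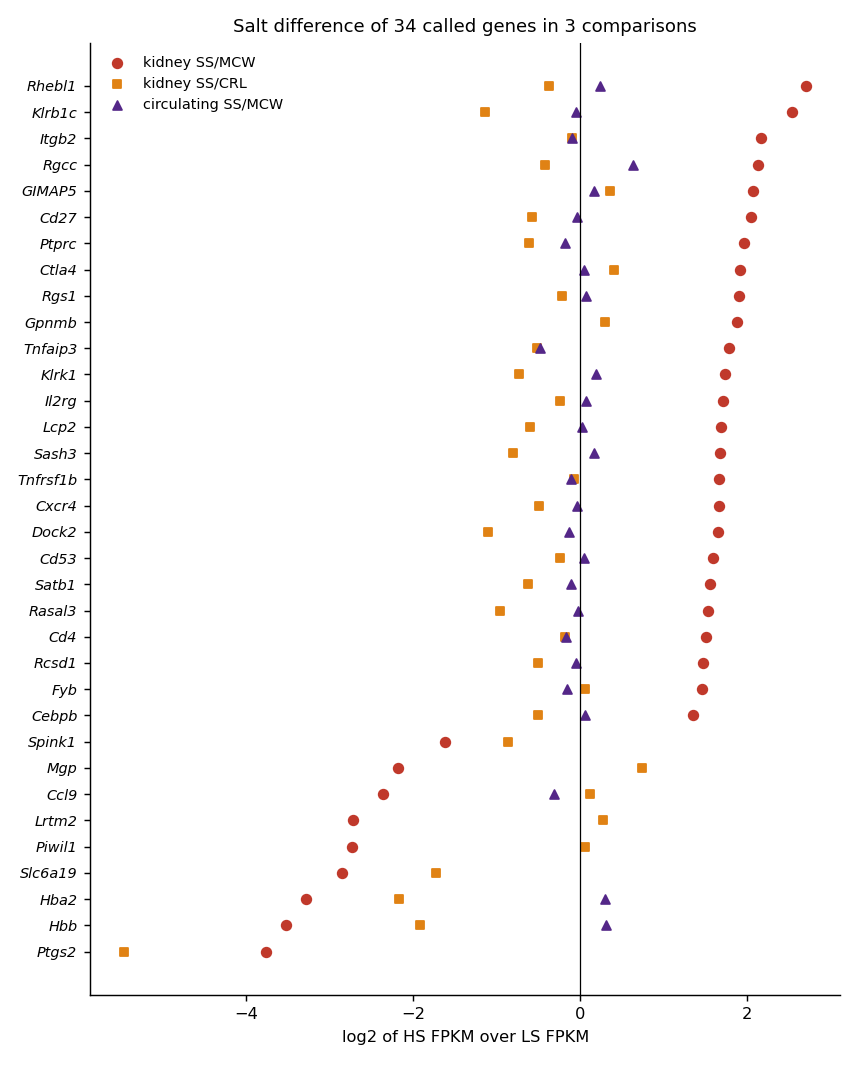
Log2 of the HS FPKM over the LS FPKM of 34 called genes (rows) in kidney T cells of SS/MCW rats (circles), kidney T cells of SS/CRL rats (squares) and circulating T cells of SS/MCW rats (triangles, omitted where both values together were under 1 FPKM). The circles of the rises lie between 1.36 and 2.72, while their squares lie between -1.14 and 0.41 and their triangles between -0.47 and 0.63.

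The genes nearest the threshold show how narrow it is. Among models with a symbol, Cd4, Rgcc and Ptgs2 stood just inside it, at q = 0.0462. Just outside it, at q = 0.0527, stood Cd3e, Hba1, Col3a1, Dusp5, C7, Prex1 and Adam19. C7, a complement gene, and the Rac activator gene Prex1 are named here for that place alone.

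Calls without a symbol made up the rest. Of the 84 calls, 39 had a group at 0, 18 of them at 0 on HS and 21 at 0 on LS, and 38 of the 39 carry no symbol. Their median length was 433 bases, against 18151 bases over all tested models, and their level in the other group lay between 1.22 and 33.4 FPKM. Of 10 further calls without a symbol, 7 fell and 3 rose. MSTRG.22783 (chromosome 16 from 53944251 to 53944511) had 1193 FPKM on HS and 5764 FPKM on LS. MSTRG.33999 (chromosome 20 from 12843061 to 12845476) rose to 33.8 FPKM on HS, against 9.76 FPKM on LS.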

How the data were processed

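RNA of T cells isolated from kidney and blood was extracted with TRIzol and made into TruSeq libraries, per the labels. The tools were cutadapt, Trim Galore 0.2.5, TopHat, TopHat2 2.1.1, Cufflinks 2.2.1 and Cuffdiff, with build rn5, per the submitters' processing notes. Per the file headers, the deposited tables give FPKM, 1 value per group, for 31677 gene models, with the Cuffdiff p-value and q-value, and the deposited test statistic is a score. Part of the deposited fold column holds a spreadsheet error in place of a number, so log2 differences were computed here from the deposited FPKM. Of the authors' 15 comparisons, 8 were used. No count, depth or value per library could be used, so no SD is given, the precision that depth gives is unknown, and nothing shows whether the 4 libraries of a group agree. The p-values are those of the authors' test over pools of 3 rats.

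The implied standard error is the log2 difference divided by the deposited statistic. Differences between salt effects were tested against a normal distribution, adjusted by Benjamini-Hochberg, and a difference that does not pass is not shown to be absent. The lists hold 808 members, and 769 were found in the tables, of which 29 needed a synonym or a change of case. The members and lists were chosen with earlier results of these data known. Genes named are the called models with a symbol, up to 6 members of each list with the smallest p and 3 with the highest FPKM, genes on either side of the threshold, and Cd3e, Cd3d, Cd3g, Cd4, Cd8a, Ptprc, Umod, Slc34a1, Lyz2 and Hbb. Named outside this rule, after their values were seen, were Ncr1, C1qa, C1qb, C1qc and Foxp3. Some genes that the rule names are not reported here. Promoter sequences are those of RefSeq, build GRCr8, and only names were joined between builds. Alternatives were q under 0.01 or 0.1, minimum FPKM values, a normal p, recentring, a pseudocount of 1, the mean in place of the median, and levels from other tables. Scripts ran in Python 3.11.15 with matplotlib 3.10.9, scipy 1.17.1, pandas 2.3.3 and numpy 2.4.6.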

Additional observations from a re-analysis of the deposited data

Results flagged for a closer look

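The salt difference of 1 gene model, ENSRNOG00000049945, passed the test between kidney and circulating T cells of SS/MCW rats, but on a statistic that its deposited p contradicts. The model has 71 bases on chromosome 2 from 111712211 to 111712281 and no symbol. It had 267 FPKM on HS and 3047 FPKM on LS in kidney cells, and 199 FPKM on HS and 460.1 FPKM on LS in circulating cells, and the kidney difference was lower by 2.30 log2 units (value -2.30). Its kidney test statistic was -269 while its deposited p was 0.2248, and it was not called. The standard error of 0.0146 behind the passing z comes from that statistic, so no difference is claimed.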

How the results depend on the processing

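No paired analysis was possible because the tables hold 1 value per group, and for the same reason no library could be left out. With q under 0.01 the called models went to 0 in SS/MCW kidney cells, 0 in circulating cells and 752 in SS/CRL kidney cells, against 84, 18 and 1130. With models at 0 in a group left out they were 24, 0 and 723, with a normal p of the statistic 6, 10 and 17, and with recentring as well 6, 10 and 15, in the same order. By construction, leaving out models at 0 removes 39 of the 84 calls. The new adjustment gave 0.0395 at a deposited p of 5e-05 and 0.0593 at 0.0001, so only calls at the smallest p stayed. What lay behind the losses with a normal p was not tested. In SS/MCW kidney cells the share called higher was 59.5%, and it was 62.5% with models at 0 left out and 50% with a normal p. In SS/CRL kidney cells it was 44.2%, 27.8% and 0%. Models that passed the difference from SS/CRL were 60 with standard errors from the deposited p, against 0. Those that passed the difference from circulating cells were 4 with such errors and 3 at 5 FPKM or more, against 1.

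The median log2 difference changed sign under an alternative for 5 lists and for all models together. Those for all models became 0.019 with levels from the tables against SS/CRL, for neutrophil genes -0.17 at 5 FPKM or more and -0.020 as a mean, for distal nephron genes 0.0018 and for podocyte genes 0.24 at 5 FPKM or more. For sodium and osmotic genes they became 0.15 as a mean and 0.0013 with levels from the tables against SS/CRL, and for glycolysis genes -0.033 without a minimum and at 5 FPKM or more. Without a change of sign, list medians moved by more than 0.25 in 20 cases, among them to -1.89 for erythroid genes at 5 FPKM or more, against -0.50. With levels from other tables the log2 differences of the 35 calls with a symbol moved by at most 0.10.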
